A study of Mus musculus with 19 samples.

Results

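The glycolytic enzymes examined here were 10 genes picked by symbol, Hk1, Gpi1, Pfkm, Pfkp, Aldoa, Gapdh, Pgk1, Eno1, Eno2 and Pkm, out of 20436 genes in each count table. All 10 passed the filter on low counts in both assays. Their RNA and the mRNA fragments that ribosomes shield from nuclease (ribosome-protected fragments, RPFs) were measured in hippocampal slices of wild-type male mice aged 28 to 42 days. Slices received DHPG, an agonist of group I metabotropic glutamate receptors, at 100 µM for 5 min, or the vehicle, artificial cerebrospinal fluid (basal). All groups were then given cycloheximide at 100 µg/ml, which stops elongating ribosomes. RNA-seq had 4 basal and 5 DHPG libraries and ribosome profiling had 5 of each, 19 in all, and the DHPG RNA library of replicate 5 had no basal partner. Slices of 6 mice were pooled per replicate and, per the study's methods, CA3 was left in these slices, so every value is a mean over all cell types of the tissue. The labels only number the replicates, and p-values measure only the spread between these pooled samples. A difference in such a sample cannot be told apart as fewer cells of a type or less RNA per cell.

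Glycolysis is the cytosolic pathway that splits glucose into pyruvate. Its first enzymes spend ATP to phosphorylate the sugar and cleave it, and its later enzymes recover ATP and reduce NAD. Brain tissue relies on glucose as its main fuel, and several steps are served by paralogs that differ between cell types, such as Eno2, which is known as neuron-specific enolase. An RPF to RNA ratio compares the ribosomes on a message with the amount of that message.

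Total counts ran from 4870813 to 7793244 in the RNA libraries and from 5692064 to 22092434 in the RPF libraries. The 10 enzymes took 0.873% ± 0.053 (SD, n = 4) of basal RNA counts and 0.816% ± 0.031 (SD, n = 5) of those with DHPG. Their share of RPF counts was 1.02% ± 0.0995 for basal and 1.01% ± 0.124 for DHPG libraries (SD, n = 5 each). The neuronal, astrocytic, oligodendrocytic and hippocampal marker lists had no gene at 0 in any library.

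How far reads of these enzymes can be told from those of other genes was read from the GENCODE M21 transcripts of mm10, because glycolytic genes have many processed pseudogenes. Windows of 30 bases, near the length of an RPF, were taken along each coding sequence without its first and last 30 bases, and windows of 62 bases, the longest read the run left, along each transcript for RNA. A window was called shared where it occurred exactly in a transcript of a gene elsewhere. All windows of Gapdh and Pgk1 were shared at RPF length (100.0%), as were 89.4% of those of Eno1, 76.9% of Pkm, 52.0% of Gpi1 and 47.5% of Aldoa. None was shared for Hk1, Pfkm, Pfkp and Eno2. At RNA length the shares were 81.5% for Gapdh, 69.0% for Eno1, 67.7% for Pgk1, 22.7% for Pkm, 13.7% for Gpi1 and 6.41% for Aldoa. Among 12632 genes with an RPF window count, 9473 had no shared window and 675 had over 50% shared. Gapdh windows occurred in 339 other genes, 327 of them annotated as pseudogenes. The study kept uniquely mapped reads, so the levels of these 6 genes are uncertain. The part of shared windows in the levels, in the shares of paralogs and in the RPF to RNA ratios was not tested.

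**Figure D1:**
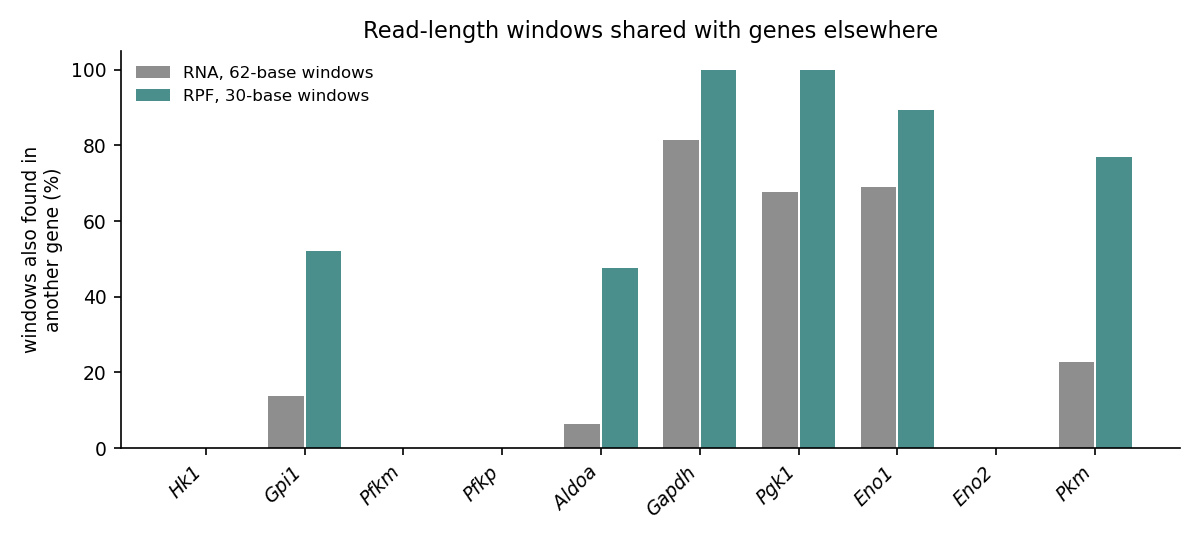
Percent of read-length windows of each enzyme that also occur in a transcript of another gene, for 62-base windows of RNA (grey bars) and 30-base windows of RPFs (green bars), in pathway order. Gapdh and Pgk1 reach 100.0% at RPF length, and Hk1, Pfkm, Pfkp and Eno2 are at 0.0% in both.

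The stretches below are examples, 1 of a window that occurs in other genes and the rest of stretches that differ between paralogs. They are coding sequence from GENCODE M21, 5′ to 3′, and capitals mark the bases at which the members of a pair differ. The first, from base 653 of the Gapdh coding sequence, occurred without a mismatch in 80 other genes. Each pair is shown at its aligned 30-base stretch with the fewest mismatches among those kept for display. The enolases Eno1 and Eno2 are shown at bases 1216 to 1245, with 4 mismatches. The phosphofructokinases are shown at bases 496 to 525 of Pfkm and 520 to 549 of Pfkp, with 2 mismatches, and the aldolases at bases 79 to 108, with 1.
Gapdh: tcatcccagagctgaacgggaagctcactg
Eno1: aagtacaaTcagAtcCtCagaattgaggaa
Eno2: aagtacaaCcagCtcAtGagaattgaggaa
Pfkm: gacaatgacttctgtggcacTgaTatgacc
Pfkp: gacaatgacttctgtggcacAgaCatgacc
Aldoa: ggcaagggcatCctggctgcagatgagtcc
Aldoc: ggcaagggcatTctggctgcagatgagtcc
Over the whole coding sequence, identity was 75.1% between Eno1 and Eno2, 68.0% between Pfkm and Pfkp and 75.7% between Aldoa and Aldoc. No read-length window of Eno2, Pfkm, Pfkp or Aldoc occurred in another gene, so the members of each pair shown could be told apart. Eno1, Aldoa and Gapdh shared windows with genes elsewhere, most of them pseudogenes. Some were protein-coding. Eno1b held 67.3% of Eno1 windows at RNA length, and Aldoart1 held 20.2% of Aldoa windows at RPF length.

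All 10 enzymes were abundant. Levels are given per length as RPKM, a count divided by the length of the transcript (for RPFs, of the coding sequence without its ends) and by the library size, scaled by edgeR's TMM method. Basal means stood above 88.9% (Pfkp) to 99.98% (Aldoa) of 12889 genes in RNA, and above 88.6% (Pfkp) to 99.8% (Aldoa) of 13149 genes in RPF. The highest enzyme stood 37.0-fold above the lowest in RNA and 19.4-fold in RPF.

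Of the first steps, Hk1, Pfkm and Pfkp carried the lowest levels of the 10 enzymes, while Gpi1 stood above them. Hk1 phosphorylates glucose and lies on chromosome 10 of mm10 (62268855 to 62379908). It had 87.4 ± 7.05 RPKM in RNA (SD, n = 4) and 178 ± 7.82 in RPF (SD, n = 5) in basal slices. Gpi1, glucose-6-phosphate isomerase, lies on chromosome 7 (34201330 to 34230336) and had 273 ± 31.1 RPKM in RNA and 544 ± 35.4 in RPF. It was thus higher than Hk1 in every basal library of both assays. Pfkm (chromosome 15, 98092589 to 98132451) and Pfkp (chromosome 13, 6579768 to 6648777) encode the muscle and platelet types of phosphofructokinase, the committed step of the pathway. Pfkm had 145 ± 8.92 RPKM in RNA and 180 ± 14.2 in RPF.

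Pfkp was the lowest enzyme in both assays and the most variable in RNA. Its basal RNA libraries of replicates 1 to 4 had 62.3, 43.3, 43.1 and 52.6 RPKM, and its DHPG libraries of replicates 1 to 5 had 57.1, 40.1, 36.6, 46.3 and 43.9. Its RPF levels were 144, 127, 128, 129 and 136 RPKM in basal slices and 133, 117, 122, 136 and 140 after DHPG. Replicate 1 was the highest RNA library of each treatment, and the groups overlapped in both assays.

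The cleavage step held the most abundant member. Aldoa (chromosome 7, 126795234 to 126800751), aldolase A, splits fructose bisphosphate into 3-carbon sugars. Its basal RNA was 1704, 1811, 2195 and 1736 RPKM, and its RNA after DHPG was 1658, 1670, 1920, 1663 and 1903. Its RPF level was 2807, 2147, 2341, 2914 and 2658 RPKM in basal slices and 2618, 2109, 2257, 3084 and 2812 after DHPG. Every library stood above the highest library of any other enzyme in its assay, and the treatments overlapped. With the transcript of the longest coding sequence in place of the principal transcript, its basal RPF mean fell from 2573 to 2224 RPKM, and it was still the highest.

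The payoff steps follow. Gapdh (chromosome 6, 125161715 to 125166467), glyceraldehyde-3-phosphate dehydrogenase, makes NADH and is often used as a reference gene. Its basal RNA was 687, 761, 868 and 626 RPKM and its RNA after DHPG 678, 647, 801, 684 and 693. Its RPF level was 861, 676, 688, 790 and 792 RPKM in basal slices and 828, 667, 696, 848 and 794 after DHPG. The treatments overlapped in both assays, and these values were counted although every RPF window of Gapdh was shared. Pgk1 (chromosome X, 106187100 to 106203699), phosphoglycerate kinase, makes the first ATP of the payoff phase. It had 319, 240, 256 and 307 RPKM of basal RNA and 279, 250, 217, 268 and 270 after DHPG. Its basal RPF libraries had 1041, 865, 908, 938 and 930 RPKM and its DHPG libraries 976, 823, 859, 962 and 974. The highest RNA library of Pgk1 was basal and the lowest was of DHPG, with overlap between them.

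Enolase turns phosphoglycerate into phosphoenolpyruvate. Eno1 (chromosome 4, 150236721 to 150248879) is the broadly expressed form and Eno2 (chromosome 6, 124760053 to 124769673) the neuronal form. Eno1 RNA was 235, 227, 257 and 231 RPKM in basal slices and 235, 207, 229, 227 and 223 after DHPG. Eno2 RNA was 285, 284, 323 and 260 RPKM in basal slices and 269, 263, 292, 258 and 255 after DHPG. Eno2 was thus slightly higher than Eno1 in RNA. In RPF the distance was much wider. Eno1 had 398, 293, 338, 367 and 373 RPKM in basal slices and 362, 286, 322, 393 and 376 after DHPG, and Eno2 had 1164, 952, 1017, 1153 and 1110 in basal slices and 1097, 964, 957, 1215 and 1129 after DHPG. No RPF library of Eno1 reached any of Eno2.

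Pkm (chromosome 9, 59656368 to 59679375), pyruvate kinase, makes the last ATP and pyruvate. Its basal RNA was 557, 466, 573 and 580 RPKM and its RNA after DHPG 518, 445, 459, 519 and 547. Its RPF level was 1242, 1022, 1100, 1286 and 1247 RPKM in basal slices and 1196, 1026, 1050, 1388 and 1279 after DHPG. In both assays the treatments overlapped, and replicate 2 was the lowest library of each treatment.

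**Figure D2:**
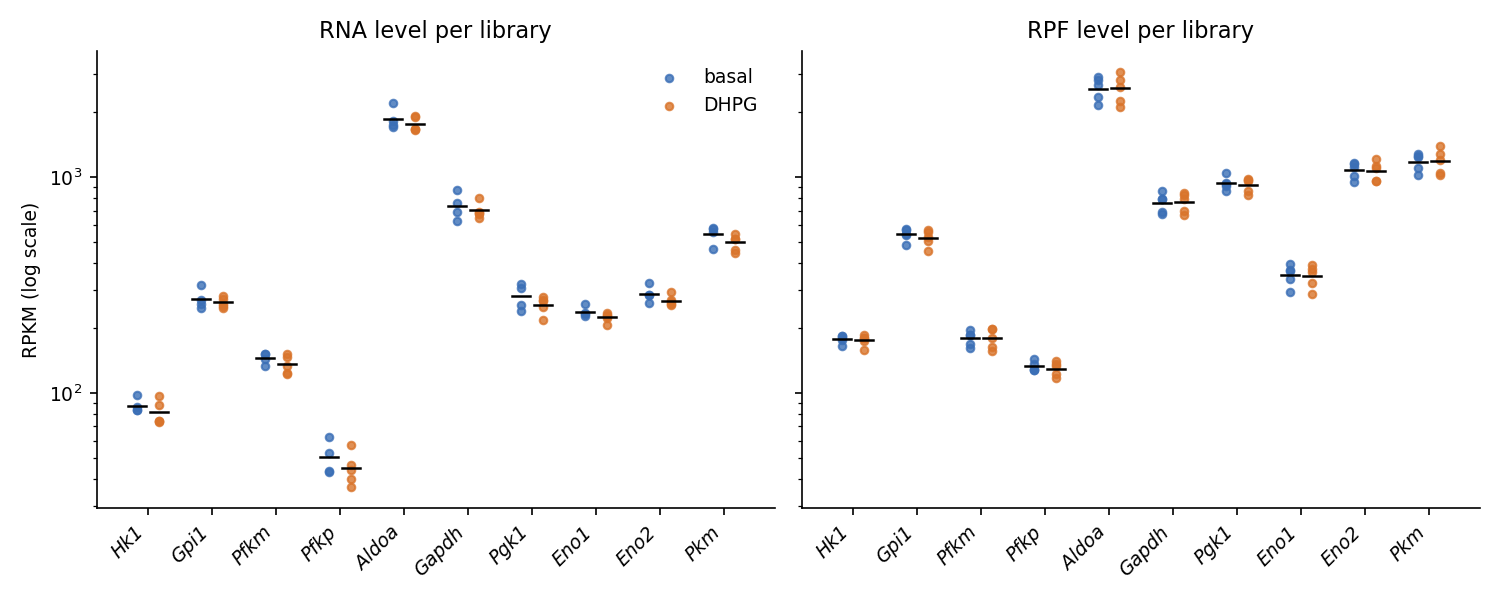
RPKM on a log scale of each enzyme in every RNA library (left) and RPF library (right), basal in blue and DHPG in orange, with black lines at the group means and enzymes in pathway order. Aldoa lies above all others in both assays, Pfkp lies lowest, and basal and DHPG points overlap for every enzyme.

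In order of basal RNA the enzymes ran Aldoa, Gapdh, Pkm, Eno2, Pgk1, Gpi1, Eno1, Pfkm, Hk1 and Pfkp. The neighbours Eno2, Pgk1 and Gpi1 (288 ± 25.9, 281 ± 38.2 and 273 ± 31.1 RPKM, SD, n = 4) were not separated, each being higher than the next in 2 of 4 libraries. Gpi1 was higher than Eno1 in 4 of 4 libraries although their ranges overlapped, and the ranges of all other neighbours did not overlap. In RPF the order was Aldoa, Pkm, Eno2, Pgk1, Gapdh, Gpi1, Eno1, Pfkm, Hk1 and Pfkp. Here only Pfkm and Hk1 (180 ± 14.2 and 178 ± 7.82 RPKM, SD, n = 5) were not separated, Pfkm being higher in 3 of 5 libraries. Pkm over Eno2 and Eno2 over Pgk1 held in 5 of 5 libraries with overlapping ranges. Gapdh stood in second place in RNA and in the fifth in RPF.

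The paralogs of each step were weighed as shares of the step's summed RPKM. Hk1 made up 94.6% ± 0.42 of hexokinase RNA (SD, n = 4) and 96.97% ± 0.43 of hexokinase RPF (SD, n = 5) in basal slices, with Hk2, the insulin-responsive form, at 1.85% ± 0.37 and 1.65% ± 0.37. Aldoa made up 82.8% ± 1.69 of aldolase RNA and 68.2% ± 3.25 of aldolase RPF, and Aldoc, a form known from astrocytes, made up 17.2% ± 1.68 and 31.8% ± 3.25. Eno2 made up 54.4% ± 1.32 of enolase RNA and 75.3% ± 0.80 of enolase RPF, while Eno1 made up 44.9% ± 1.17 and 24.6% ± 0.81. The muscle enolase Eno3 was at 0.684% ± 0.21 of RNA and 0.056% ± 0.0063 of RPF. Eno1b, a protein-coding gene that shares windows with Eno1, was left out of the enolase sum. For aldolase and enolase the ranges of RNA and RPF shares did not overlap. Per-length shares depend on the transcript chosen. For RNA its length was 2786 bases for Aldoc and 1511 for Aldoa, and for RPFs 1029 and 1032. By CPM, not per length, the basal RPF to RNA ratio was 1.11 ± 0.13 for Aldoc and 0.95 ± 0.21 for Aldoa (SD, n = 4). Shared windows were 47.5% of Aldoa and 89.4% of Eno1 at RPF length and 6.41% and 69.0% at RNA length. Aldoc and Eno2 had 0.0% at both lengths, and the part of this in the shares of the paralogs was not tested.

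Phosphofructokinase was divided more evenly. Pfkm took 51.2% ± 0.73 of its basal RNA, Pfkl, the liver type, 31.1% ± 1.43 and Pfkp 17.7% ± 2.16 (SD, n = 4). In RPF, Pfkm took 42.8% ± 0.89, Pfkp 31.7% ± 1.34 and Pfkl 25.5% ± 0.65 (SD, n = 5). Pfkl was above Pfkp in RNA and below it in RPF, with no overlap of the ranges of either share between the assays. After DHPG the shares differed from the basal ones by less than 1 SD of the basal libraries for Pfkm, Pfkp and Pfkl in RNA and RPF. The remaining steps are served by Tpi1, triosephosphate isomerase, and Pgam1, phosphoglycerate mutase. Tpi1 had 389 ± 35.5 RPKM in basal RNA and 1015 ± 78.4 in basal RPF, and Pgam1 had 297 ± 43.9 and 1118 ± 73.3, within the range of the payoff enzymes. These levels are uncertain too. Shared windows were 100.0% of Pgam1 and 31.8% of Tpi1 at RPF length, and 41.1% and 4.40% at RNA length.

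The basal RPF to RNA ratio, RPF RPKM over RNA RPKM within a replicate, divided the enzymes. Eno2 (3.75 ± 0.60), Pgk1 (3.37 ± 0.25) and Pfkp (2.67 ± 0.34) were highest, Pkm (2.14 ± 0.15), Hk1 (2.05 ± 0.15) and Gpi1 (2.01 ± 0.30) were intermediate, and Eno1 (1.47 ± 0.20), Aldoa (1.39 ± 0.31), Pfkm (1.21 ± 0.024) and Gapdh (1.05 ± 0.24) were lowest (SD, n = 4 each). Over 12633 genes the median ratio was 1.90, with the middle 50% of genes between 0.987 and 3.94. The enzymes therefore ran from the 27.3rd percentile (Gapdh) to the 73.6th (Eno2), with 6 above the median of all genes and 4 below it. Gapdh and Aldoa, which led in RNA, lay in the lower group here.

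Within some steps the ratios of paralogs did not overlap between replicates. Eno2 had 4.08, 3.36, 3.15 and 4.43 in replicates 1 to 4 and Eno1 had 1.69, 1.29, 1.32 and 1.59, so that every replicate of Eno2 exceeded every replicate of Eno1. Pfkp had 2.31, 2.94, 2.98 and 2.45 and Pfkm 1.22, 1.21, 1.17 and 1.22, again without overlap. Aldoc had 3.01 ± 0.35 against 1.39 ± 0.31 for Aldoa (SD, n = 4). By CPM, not per length, these ratios were 1.11 ± 0.13 for Aldoc and 0.95 ± 0.21 for Aldoa. For Eno1 and Aldoa more windows were shared at RPF than at RNA length, and for Eno2 and Aldoc none were. The part of this in the ratios was not tested. The ratio of Pfkl, 1.19 ± 0.066, overlapped that of Pfkm, and the ratio of Hk2, 1.79 ± 0.67, overlapped that of Hk1 (SD, n = 4 each). In the order of ratios, Eno2 and Pgk1 were not separated, nor were Pkm, Hk1 and Gpi1, each having overlapping ranges with its neighbour. Eno1, Aldoa, Pfkm and Gapdh also overlapped from neighbour to neighbour, but every replicate of Eno1 lay above all those of Pfkm and Gapdh. These groups of neighbours were separated from each other and from Pfkp. As a ratio of CPM, not per length, the grouping changed: Pfkp and Hk1 were both at 1.48, Pgk1 (2.20) stood above Eno2 (1.67), and Eno1 (0.90) stood below Pfkm (0.96).

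**Figure D3:**
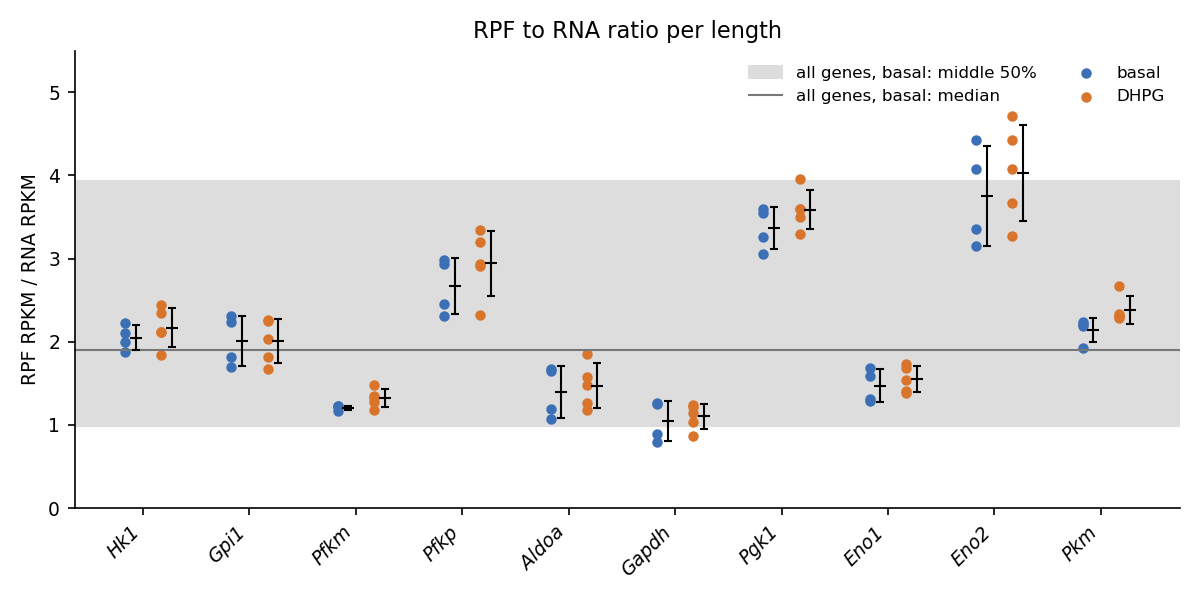
RPF RPKM over RNA RPKM per replicate for each enzyme, basal in blue (4 replicates) and DHPG in orange (5 replicates), with the mean and SD in black, against the median (line, 1.90) and middle 50% (grey, 0.987 to 3.94) of all genes in basal slices. Eno2 and Pgk1 lie high, Gapdh and Pfkm low, and DHPG points overlap the basal points except for Pkm. Overlap was not counted over all genes.

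The comparison of DHPG with basal asks whether brief receptor activation changed these messages. It was made by edgeR's quasi-likelihood test over all genes with the replicate number as a block. In RNA, 0 of the 10 enzymes passed an adjusted p of 0.01, beside 0.00773% of all 12935 genes tested. All 10 estimates were lower after DHPG, beside 47.9% of all genes, with a median log2 fold change of -0.09 against 0.01 over all genes. At an unadjusted p under 0.05 there were 3 enzymes, all lower, beside 2.81% of all genes that were lower at that level. These were Pkm with a log2 fold change of -0.16 (95% interval -0.29 to -0.03, edgeR adjusted p = 0.558), Pfkp with -0.16 (-0.30 to -0.02, edgeR adjusted p = 0.574) and Pgk1 with -0.14 (-0.28 to -0.01, edgeR adjusted p = 0.608). DESeq2 with the block also called 0 enzymes. With trends in GC content and length removed, 8 enzymes in place of 3 had an unadjusted p under 0.05, all lower, beside 4.44% of all genes that were lower at that level, and 0 were called. The other estimates lay between -0.10 (Aldoa) and -0.03 (Gpi1), with intervals that included 0.

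The RNA differences varied between pairs. Pkm was lower after DHPG in 4 of 4 pairs, by 0.06 to 0.32 on the log2 scale, and Pfkp in 4 of 4, by 0.11 to 0.24. Aldoa, Eno1 and Eno2 were also lower in 4 of 4 pairs, Hk1, Pfkm, Gapdh and Pgk1 in 3 of 4, and Gpi1 in 1 of 4. Over the 10 enzymes the median difference was -0.03 in pair 1, -0.11 in pair 2, -0.20 in pair 3 and -0.04 in pair 4, and all 10 were lower only in pair 3. Without replicate 3 the median of the fitted changes fell in size to -0.06, and no enzyme had an unadjusted p under 0.05. Under ComBat by replicate number followed by DESeq2, Pkm (DESeq2 adjusted p = 0.0040) and Pfkp (DESeq2 adjusted p = 0.0081) were called. Of all genes, 102 (0.789%) were called there in place of 1. The study's methods also name ComBat and DESeq2, but applied to counts and with more replicates. Here ComBat ran on log2 CPM with treatment kept in its model.

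In RPF the enzymes were nearly level. None of the 10 passed an adjusted p of 0.05, beside 0.22% of 13208 genes, and none had an unadjusted p under 0.05, beside 10.8% of all genes. Estimates were lower for 8 enzymes, beside 48.6% of all genes, and higher for Gapdh (0.01) and Pkm (0.01), with a median of -0.02 against 0.00 over all genes. All 95% intervals lay between -0.11 (Gpi1) and 0.07 (Gapdh). Gpi1 had the smallest p, with a log2 fold change of -0.05 (95% interval -0.11 to 0.00, edgeR adjusted p = 0.511). It was called under ComBat followed by DESeq2 (DESeq2 adjusted p = 0.012), where 429 of all genes (3.25%) were called in place of 29.

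The change of the RPF to RNA ratio was tested as the interaction of assay and treatment over all 19 libraries. No enzyme passed an adjusted p of 0.05 in edgeR, nor did any gene, with 0% of 12691 called and 859 at an unadjusted p under 0.05. The count by limma was also 0. The estimate was higher for 9 enzymes, beside 49.5% of all genes, and lower for Gpi1, with a median of 0.08 against -0.0014 over all genes. At an unadjusted p under 0.05 there was 1 enzyme, Pkm, beside 3.14% of all genes that were higher at that level. Its difference of log2 fold changes was 0.17 (95% interval 0.04 to 0.29, edgeR adjusted p = 0.680). This edgeR model did not pair the RNA and RPF libraries of a sample. In limma, fitted to log2 RPF less log2 RNA within each sample, 0 enzymes had an unadjusted p under 0.05, beside 5.48% of genes. The ratio of Pkm was 2.23, 2.19, 1.92 and 2.22 in basal replicates and 2.31, 2.30, 2.29, 2.67 and 2.34 after DHPG, so the treatments did not overlap. It was higher in 4 of 4 pairs, by 0.05 to 0.27 on the log2 scale, a difference that did not pass the adjusted test. How many of all genes had ratios without overlap between treatments was not counted, so this only describes Pkm. The ratio estimates share their libraries with the RNA and RPF comparisons and are not independent of them.

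**Figure D4:**
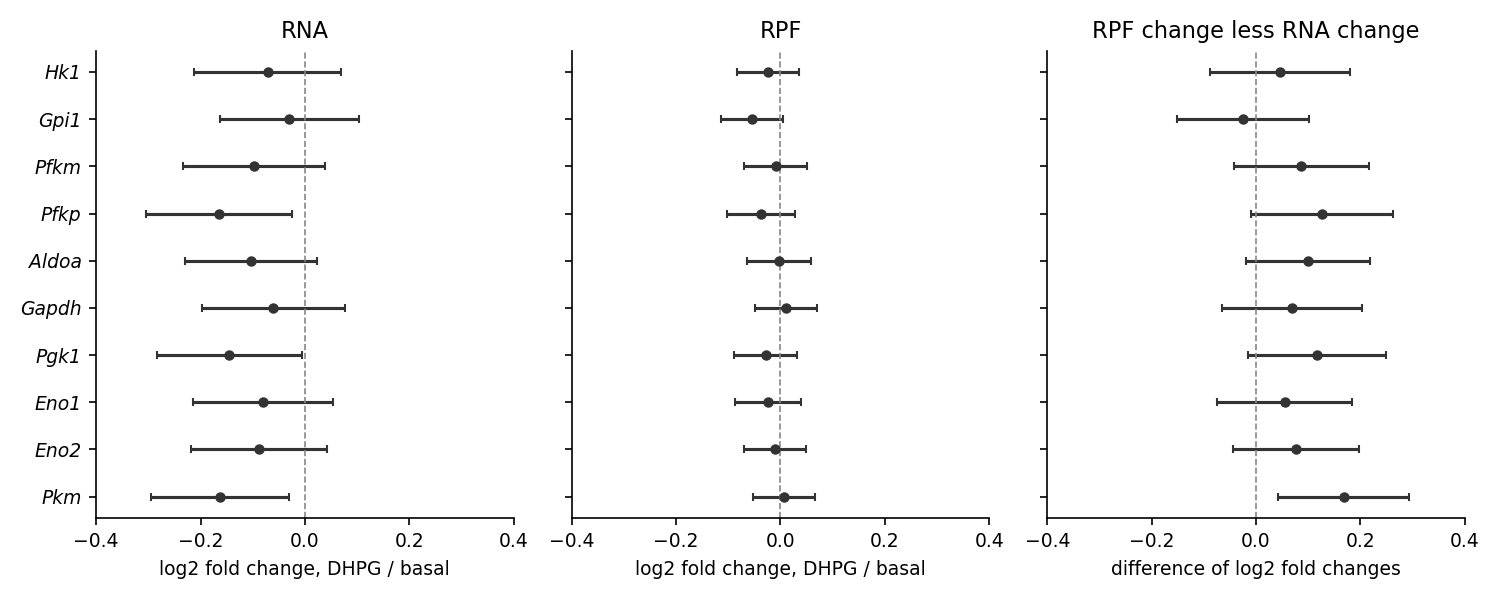
Estimated log2 fold change of DHPG against basal with its 95% interval from edgeR for each enzyme in RNA (left) and RPF (middle), and the difference of the 2 (right). RNA points all lie left of 0, RPF points lie within 0.06 of 0, and the differences lie right of 0 except for Gpi1, while no enzyme passed the adjusted threshold.

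The enzymes moved together from replicate to replicate, most of all in RPF. Over the 45 pairs of enzymes, Pearson's r of log2 CPM across the 10 RPF libraries had a median of 0.88, with a range from 0.73 to 0.99. CPM are counts scaled to the TMM-adjusted library size, not per length. Across the 9 RNA libraries the median was 0.45, with a range from -0.60 to 0.91. The libraries share depth and batch, and these values are descriptions. Pairs of other genes were not correlated in this way, so the values are not shown to be particular to the enzymes. In replicate 2 the enzymes lay below their own means in RPF under both treatments, by 0.16 in basal slices and by 0.20 after DHPG on the log2 scale, and in replicate 4 they lay above them by 0.08 and 0.14. Differences of DHPG from basal also went together within a pair. In RPF all 10 were lower in pair 1, 8 in pair 2 and 9 in pair 3, and all 10 were higher in pairs 4 and 5, with medians of -0.09, -0.04, -0.07, 0.08 and 0.03. The near-zero RPF estimates were thus means over pairs that went opposite ways.

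**Figure D5:**
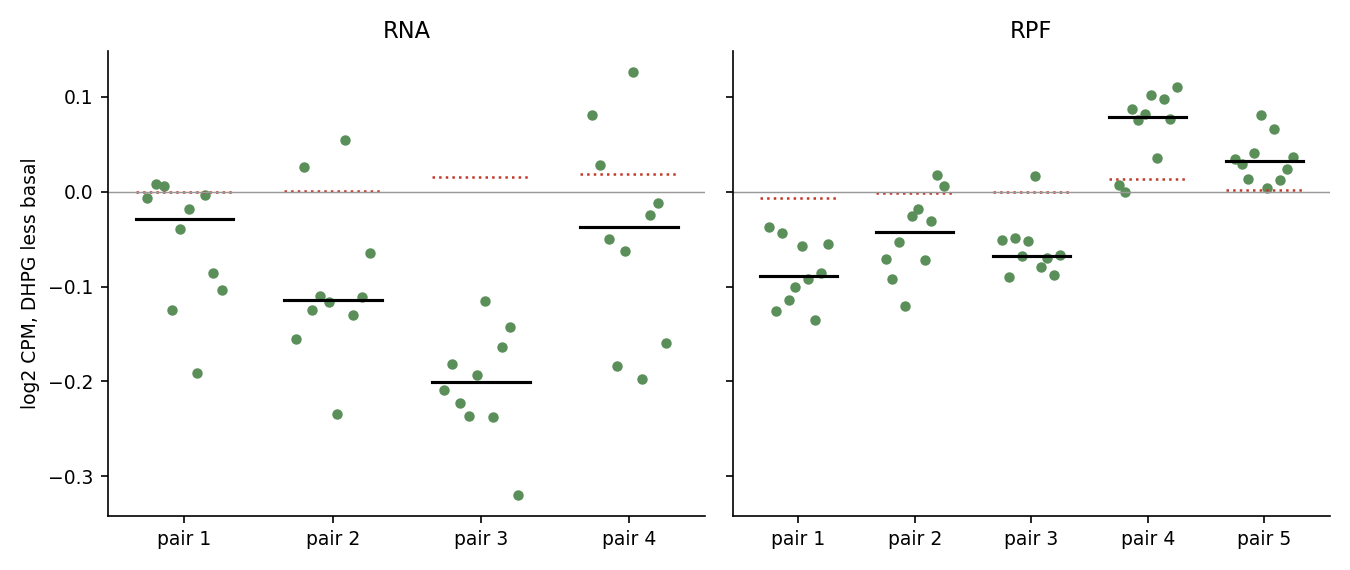
Difference of log2 CPM between the DHPG and the basal library of each replicate pair in RNA (left, 4 pairs) and RPF (right, 5 pairs), with a point per enzyme, a black line at their median and a red dotted line at the median of all genes. RPF points lie below 0 in most of pairs 1 to 3 and above 0 in pairs 4 and 5, and RNA points lie lowest in pair 3.

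Basal replicates of the enzymes spread less than the median gene in RNA, a comparison that was not matched for level. Every enzyme stood above at least 88.9% of genes in RNA level, and the part of level in the spread was not tested. The SD of log2 CPM over basal RNA libraries was 0.08 for Eno1, 0.09 for Pfkm and 0.25 for Pfkp, against a median of 0.26 over all genes tested, and all 10 lay below that median. In RPF the median over all genes was 0.15, and 7 of the 10 lay below it, with Hk1 at 0.06, and Eno1 at 0.17 and Aldoa at 0.18 above it. Among other genes with over 10 CPM, those whose log2 CPM went most like the mean of the enzymes were Snd1 (r = 0.92), Ip6k2 (0.92), Suclg1 (0.91), Aco1 (0.91) and Gart (0.90) over 9 RNA libraries. Over the 10 RPF libraries they were Atp5a1 (r = 0.99), Eif3d (0.99), Pspc1 (0.99), Sin3b (0.99) and Drg2 (0.98).

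The rest of glucose metabolism was read from 6 lists of 78 genes. No gene of any list passed the adjusted threshold of RNA, RPF or the ratio in edgeR, and 3 of 65, 3 of 66 and 3 of 64 genes tested had an unadjusted p under 0.05, beside 8.02%, 10.8% and 6.77% of all genes. Of the other glycolytic isoforms, 11 of 16 were tested in RNA, with 4 estimates higher and 7 lower and a median of -0.02, and 11 in RPF, with 6 higher and 5 lower and a median of 0.01. Genes of glucose and monocarboxylate transport and lactate dehydrogenase had 8 higher and 3 lower in RNA (median 0.01) and 8 higher and 4 lower in RPF (median 0.05). Genes that pass pyruvate into mitochondria had 5 higher and 10 lower in RNA (median -0.04) and 9 higher and 6 lower in RPF (median 0.00). The pentose phosphate pathway, which branches off at glucose 6-phosphate, had 1 higher and 7 lower in RNA (median -0.03) and 7 higher and 1 lower in RPF (median 0.03). Glycogen metabolism had 8 higher and 7 lower in RNA (median 0.01) and 3 higher and 12 lower in RPF (median -0.02). Regulators and branch enzymes had 2 higher and 3 lower in RNA (median -0.01) and 3 higher and 2 lower in RPF (median 0.04).

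Among the smallest p-values of these lists in RNA were those of Pdk2, a kinase that restrains pyruvate dehydrogenase, with a log2 fold change of 0.25 (SE 0.09, edgeR adjusted p = 0.540), and Slc2a13, an inositol transporter of the glucose transporter family, with 0.15 (SE 0.07, edgeR adjusted p = 0.600). In RPF they belonged to Pdp1, the phosphatase that activates pyruvate dehydrogenase, with 0.11 (SE 0.04, edgeR adjusted p = 0.267), Adpgk, which phosphorylates glucose with ADP, with 0.15 (SE 0.06, edgeR adjusted p = 0.404), and G6pdx, the entry enzyme of the pentose phosphate pathway, with 0.11 (SE 0.05, edgeR adjusted p = 0.425). For the ratio they included Pdk2 with -0.26 and Slc16a3, a monocarboxylate transporter, with -0.54, at edgeR adjusted p-values of 0.645 and 0.690. None of these passed the adjusted threshold.

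Marker lists of cell types also had estimates away from 0, beside the lower RNA estimates of the enzymes. Of 10 oligodendrocyte markers, all had a higher estimate after DHPG in RNA (median 0.16, 0 called), and their summed level ran from 2832 to 5882 CPM in basal and from 3262 to 6737 CPM in DHPG libraries. In RPF, 8 of 10 were higher (median 0.09, 1 called), with sums from 4566 to 9422 CPM and from 5300 to 10678 CPM. Astrocyte markers were higher in 8 of 10 in RNA (median 0.06, sums 5491 to 6411 CPM in basal and 5886 to 6713 CPM in DHPG libraries), and in 10 of 10 in RPF (median 0.07). Microglia markers were higher in 5 of 10 in RNA (median -0.0030) and in 10 of 10 in RPF (median 0.10), and endothelial and mural markers were lower in 6 of 10 in RNA (median -0.06) and in 8 of 10 in RPF (median -0.13). Neuronal markers were higher in 6 of 12 in both assays (medians -0.0048 and 0.0064), with RNA sums from 6759 to 9026 CPM in basal and from 7011 to 8840 CPM in DHPG libraries. Of 6 thalamus markers, a list drawn up after earlier calls in these data, 5 were tested and higher in RNA (median 0.61, 1 called) and 6 were called higher in RPF (median 0.54). Hippocampal pyramidal and granule cell markers were higher in 9 of 10 in RNA (median 0.08) and in 4 of 10 in RPF (median -0.01). The part of cell composition in the RNA estimates of the enzymes was not tested.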

How the data were processed

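The 19 samples, grouped by their labels, were RNA-seq and ribosome profiling libraries of mouse hippocampal slices. The authors removed rRNA and tRNA reads, mapped the rest to mm10, kept uniquely mapped reads and dropped duplicates. The deposited values are expected counts that RSEM made per gene, already rounded, on RefSeq coding sequences without their first and last 30 bases for RPFs and on whole transcripts for RNA-seq. RNA-seq libraries were depleted of rRNA with RiboZero. In the tables, 12 columns of replicates 6 to 8 match no sample and were not used. Counts of shared reads cannot be split again from these tables.

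Counts were analysed in R 4.3.3 with edgeR 4.0.16 (TMM, filterByExpr, quasi-likelihood F test, replicate number as a block, p-values adjusted by Benjamini-Hochberg across the genes fitted). Thresholds on adjusted p were 0.01 in RNA and 0.05 in RPF and in the interaction of assay and treatment. Every interval and adjusted p is from edgeR unless DESeq2 is named. Log2 CPM used a prior count of 2. Per-length values used 1 principal GENCODE M21 transcript per gene (99.4% of symbols matched), not the authors' RefSeq set. The alternatives were DESeq2 1.42.0, ComBat from sva 3.50.0, limma 3.58.1, other filters and scaling, GC and length trends removed by loess, other lengths, and each replicate left out. The steps were tested on simulated data. Same-numbered libraries deviated together (correlation of deviations from group means 0.31 to 0.74 in RNA and 0.26 to 0.52 in RPF). The numbers were therefore taken to pair the samples, though libraries of different numbers were not correlated for comparison.

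The members, pathway lists, marker lists and tests were chosen with earlier results of these data known. Named beside the members are list genes past a threshold or the 3 with the smallest p per assay (some of these are not reported here), the isoform partners Hk2, Pfkl, Aldoc and Eno3, the steps Tpi1 and Pgam1, and the 5 genes per assay whose levels went most like the members' mean. Counting error is covered only through the spread between libraries.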

Additional observations from a re-analysis of the deposited data

Results flagged for a closer look

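Each enzyme's level and RPF to RNA ratio, and the percent of each library's counts in the 10 enzymes, were screened for a library far from the rest of its group by Dixon's ratio at the 95% level, over 64 groups of 4 or 5 values, of which chance flags about 1 in 20. There were 3 such values. The basal ratio of Pfkm was 1.173 in replicate 3, below 1.215 to 1.223 in the others, a small distance in a group with little spread. The basal ratio of Pkm was 1.92 in replicate 3, below 2.194 to 2.232 in the others, and its ratio after DHPG was 2.674 in replicate 4, above 2.287 to 2.336 in the others. Both flagged values of Pkm lay on the side away from the other treatment, so leaving them out could not bring the treatments to overlap. A cause was not tested.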

How the results depend on the processing

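No enzyme was called in any edgeR or limma fit or in DESeq2 with the block. ComBat followed by DESeq2 called 2 of 10 in RNA (Pfkp at -0.17 and Pkm at -0.17), beside 0.789% of all genes. It called 1 of 10 in RPF (Gpi1 at -0.06), beside 3.25% of all genes. The count of all genes called also moved between settings. In RNA the count of 1 became 7 with no filter, 0 with at least 10 counts in every library, 0 with DESeq2 and the block, 102 with ComBat, and 0 to 22 without a replicate (22 without replicate 2, 2 without 1 or 4, 0 without 3). In RPF the count of 29 became 96 with no filter, 429 with ComBat, 8 at an adjusted p under 0.01, and 3 to 71 without a replicate (10 without 1, 3 without 2, 71 without 3, 50 without 5). For the ratio the count of 0 became 4 with no filter and 0 to 8 without a replicate (1 without 1, 8 without 2). Without the replicate block, 0 RNAs and 0 RPFs were called, and the enzymes' median change was -0.10 in RNA, -0.02 in RPF and 0.09 for the ratio.

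The median change of the enzymes ran from -0.122 to -0.0623 in RNA, from -0.033 to -0.0024 in RPF and from 0.0673 to 0.116 for the ratio without a replicate. Over the 4 enzymes with no shared window, an alternative added after seeing the data, it was -0.09, -0.02 and 0.08. Signs turned only for estimates near 0. Without a replicate, Gpi1 ran from -0.0523 to 0.0209 in RNA (higher without replicate 3) and from -0.0667 to 0.0087 for the ratio (higher without replicate 1 or 2). In RPF, Aldoa ran from -0.0243 to 0.0193 (higher without replicate 1, 2 or 3), Eno2 from -0.0327 to 0.0092 (higher without replicate 1 or 3), Pfkm from -0.0333 to 0.0015 (higher without replicate 2 or 3), Gapdh from -0.0128 to 0.0238 (lower without replicate 4) and Pkm from -0.02 to 0.025 (lower without replicate 4 or 5). Without the block, Aldoa was 0.0017 in RPF and Gpi1 was 0.0013 for the ratio. With GC and length trends removed, Gapdh was -0.0054 and Pkm was -0.0104 in RPF. With GC and length trends removed, 8 enzymes had an unadjusted p under 0.05 in RNA, all lower, beside 4.44% of all genes that were lower at that level. The median basal ratio of 2.03 was 1.24 as a ratio of CPM not per length, which lowers every enzyme's ratio by construction.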
